A study of Mus musculus with 128 samples.

Results

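Interscapular brown adipose tissue (BAT) was compared with reproductive white adipose tissue (WAT) from the same SM/J mice on a low-fat diet. All 16 BAT and all 16 WAT libraries of this strain and diet were used, which are 32 of the 128 libraries of the study and 16 of its 64 animals, and the depots of an animal were paired through the animal number in the library names. The study sequenced total RNA of both depots in the inbred mouse strains SM/J and LG/J, fed a diet high or low in fat, at 20 and 30 weeks of age, in males and females. Each of the 4 groups used here (20-week females, 20-week males, 30-week females and 30-week males, all SM/J, low-fat) held 4 animals, with both depots of each. The labels name no transgene, drug or pooling of animals.

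Brown fat burns fatty acids and glucose to make heat. Its adipocytes hold many mitochondria, and uncoupling protein 1 (Ucp1) in their inner membrane lets protons return without making ATP, a program switched on by noradrenaline from sympathetic nerves. White fat stores triglyceride in adipocytes with a single large droplet, releases fatty acids on demand and secretes hormones such as leptin, adiponectin and, in mice, resistin. The reproductive depot lies in the abdominal cavity beside the gonads and is covered by mesothelium, the epithelium that lines the cavity.

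The BAT table listed 12875 genes and the WAT table held 13967, of which 12496 stood in both. Values are normalised counts that the submitters scaled within each table, so depot and table cannot be told apart in any difference below. The 32 libraries were therefore rescaled together by their median ratio, which moved the median difference of all genes from -0.50 to -0.01 on the log2 scale. The deposited values summed to 16293526 to 19460135 per BAT library and 16477015 to 20803551 per WAT library, and the read depth behind them is not known. Of the 16 WAT libraries, that of the 20-week female 699 (median correlation with the others 0.919) and that of the 30-week male 552 (0.949) stood apart from the rest, and those of female 699 and of the 30-week male 631 held the most smooth muscle RNA. Skeletal muscle marker sums were over 300 normalised counts per 1000000 in 8 animals, among them the BAT of all 4 of the 20-week females (1462 to 2251 per 1000000, against 31.6 to 1396 in the other 12). Marker sums here and below are per 1000000 of each library's deposited total, over the genes its own table held. They do not use the joint rescaling, so they rest on another scale than the differences beside them. Sex-chromosomal and mitochondrially encoded genes were not analysed here.

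More than 2-fold depot differences were found by limma in 2723 of the 12496 genes (21.8%). Of these, 1171 were higher in BAT (9.37%) and 1552 were higher in WAT (12.4%), so that 43.0% of the calls were on the BAT side. With the values as deposited, 650 and 2669 genes were called (19.6% on the BAT side). With all libraries brought to the same total, 718 and 2400 were called (23.0%). Of the 2723 calls, 2202 and 2270 were kept under these scalings. No called gene changed direction under any scaling. Calls asked for more than 2-fold and the rescaling moved the median by 0.49 on the log2 scale, so a change of direction was hardly possible. In 3722 genes (29.8%) the 16 BAT and the 16 WAT libraries did not overlap, and 6418 genes (51.4%) differed in the same direction in all 16 animals. In whole tissue, more RNA per cell and more cells of a type cannot be told apart. Unless stated otherwise, differences are BAT minus WAT on the log2(normalised count + 1) scale with their standard error (SE), adjusted p-values are Benjamini-Hochberg values over all 12496 genes from limma's test against a 2-fold difference, and "called" means an adjusted p under 0.05.

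Most genes of the brown adipocyte program were called higher in BAT. Of the 25 genes of the brown adipocyte and thermogenic list in both tables, 22 were called higher in BAT (9.37% of all genes were) and 0 higher in WAT, with a median difference of 4.69 against -0.01 over all genes. Ucp1 ranged from 56427 to 130678 normalised counts in BAT (median 103769) and from 6.14 to 5725 in WAT (median 208). The depots did not overlap, and the WAT values spread far more widely than the BAT values. The difference was 8.79 (SE 0.60, adjusted p = 6.27e-10), that is 443-fold, and it was the largest among the called genes with a level of at least 500 in the higher depot. Cidea, a lipid droplet protein of brown adipocytes, ranged from 37710.2 to 69682 in BAT (median 56588) and from 105 to 3682 in WAT (median 479), a difference of 6.90 (SE 0.32, adjusted p = 3.4e-12). All 16 animals had more Cidea in BAT.

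Other members of the list have roles in fatty acid handling, transcription and the respiratory chain. Fabp3, a carrier of fatty acids in the cytosol, had a median of 15116 in BAT (9054 to 24789.7) and 93.2 in WAT (20.0 to 667), a difference of 7.35 (SE 0.38). Elovl3, which lengthens fatty acids and is known as a gene of recruited brown fat, differed by 6.74 (SE 0.36), and here the depots overlapped, since BAT ranged from 228 to 7117 and WAT from 3.93 to 254. Dio2, the deiodinase that makes active thyroid hormone inside the cell, also overlapped, with 1 WAT library at 1618 normalised counts against a WAT median of 30.9 and a BAT median of 1572. Among the regulators, the nuclear receptor Ppara differed by 5.73, its partner Ppargc1a by 4.18 and Prdm16, which specifies brown adipocytes, by 2.91. The members that were not called were Ebf2 (1.07), Irf4 (0.03) and Adrb3 (-0.22), the beta3-adrenergic receptor, which had means of 6712 in BAT and 8659 in WAT. A further 4 members, Bmp8b, Cpt1b, Lhx8 and Zic1, were listed in the BAT table only.

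The 12 largest called differences towards BAT at a level of at least 500 and without overlap held several genes outside that list. Slc27a2, which activates very long chain fatty acids, had medians of 3327 in BAT and 17.8 in WAT, a difference of 7.49 (SE 0.41). Kng2, a kininogen, ranged from 3101 to 5636 in BAT and from 18.1 to 153 in WAT (6.34, SE 0.24), but it shares much sequence with its paralog Kng1, so its level is uncertain where reads were shared. Perm1, a regulator of mitochondrial genes in muscle, differed by 6.13 (SE 0.22), with all BAT libraries at or above 1645 and all WAT libraries at or below 75.7. Ntrk3, a neurotrophin receptor, differed by 5.79 (SE 0.16), with ranges of 1790.2 to 3204 in BAT and 14.8 to 148 in WAT. Further genes of this rank belong to the brown list. They were Acot11 (6.53), a thioesterase, Pank1 (6.22), which starts coenzyme A synthesis, and the respiratory subunits Cox7a1 (6.24) and Cox8b (5.90).

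**Figure D1:**
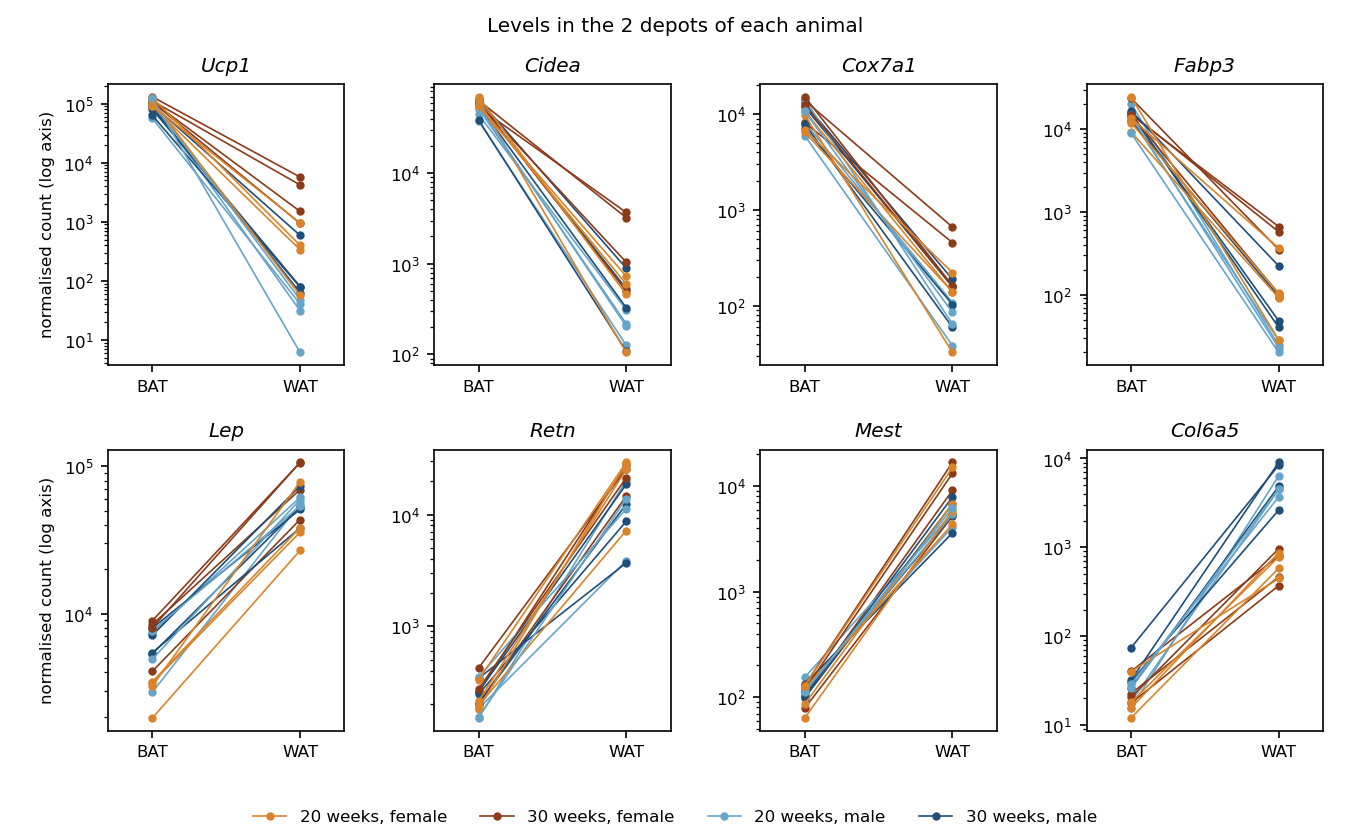
Normalised counts (log axis) of single genes in BAT and WAT, with a line for each of the 16 animals and colours for the 4 age and sex groups. The lines of Ucp1 all fall from BAT to WAT but end in WAT anywhere between 6.14 and 5725, while those of Lep all rise.

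Nuclear genes of the respiratory chain were higher in BAT almost without exception. Of complex I, which takes electrons from NADH, 34 of 35 genes were called higher in BAT (median difference 2.40). Complexes II and III with cytochrome c had 14 of 14 (2.83), complex IV, which reduces oxygen, 16 of 17 (2.36), and the tricarboxylic acid cycle 15 of 16 (3.15). Ndufv1, a core subunit of complex I, ranged from 27278 to 36846 in BAT and from 2129 to 6120.5 in WAT (3.16, SE 0.09). Uqcrc1 of complex III (3.37) and Cox5a of complex IV (3.25) differed to a like extent, each in 16 of 16 animals and without overlap. None of these genes was called higher in WAT. Cox6a2, of the complex IV list, was listed in the WAT table only, at a mean of 32.4, and has no depot difference.

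ATP synthase, the enzyme whose work Ucp1 bypasses, had 14 of 18 genes called higher in BAT (9.37% of all genes were). A further 2 were called higher in WAT (12.4% of all genes were), and the median was 2.02. The catalytic subunit Atp5b had a mean of 199780 ± 9389.6 (SD, n = 16) in BAT and 29680.4 ± 7604 in WAT, a difference of 2.80. The members in the other direction were Atp5g1, which encodes 1 source of subunit c, and Atpif1, the inhibitor of the synthase. Atp5g1 ranged from 79.6 to 191 in BAT and from 344 to 655 in WAT (-1.98, SE 0.09, adjusted p = 1.4e-08). Atpif1 ranged from 48.1 to 144 and from 227 to 500.4 (-1.78, SE 0.10, adjusted p = 8.82e-07). Neither overlapped between the depots. Atp5g1 has near-identical copies in the genome, and how shared reads were assigned is not given in the sources used here, so its level is uncertain.

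**Figure D2:**
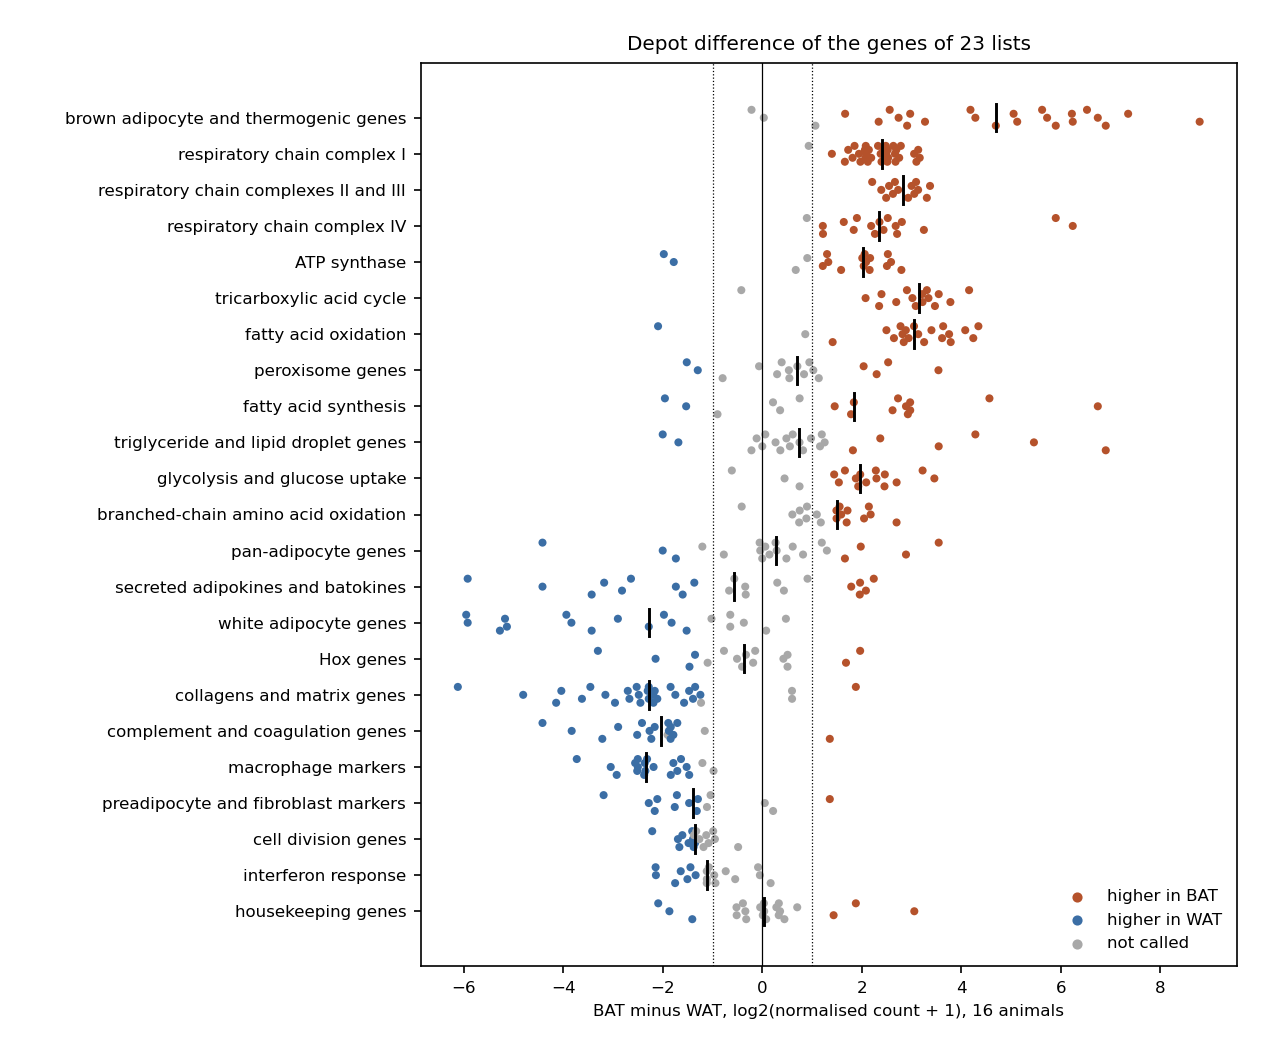
BAT minus WAT difference on the log2(normalised count + 1) scale for every gene of 23 lists, each point 1 gene over 16 animals. The respiratory chain, tricarboxylic acid cycle and fatty acid oxidation lists lie almost wholly on the BAT side, and the collagen, complement and macrophage lists on the WAT side.

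Because these genes moved together, the 250 bases before the annotated start are shown for members of different roles: Ucp1 itself, Acadm (an acyl-CoA dehydrogenase of fatty acid oxidation), Cycs (cytochrome c), Ndufs5 (a complex I subunit) and, from the WAT side, Retn (resistin). They are RefSeq sequences of GRCm38.p6, on the strand of the gene, 5′ to 3′, and capitals mark matches on either strand to TGACGTCA (the cAMP response element), AAGGTCA (bound by nuclear receptors such as the estrogen-related receptors), the nuclear respiratory factor 1 (NRF1) motif or CCGGAAG (ETS factors such as GABP), with TATAAA also searched. The windows are Ucp1 at chr8:83290098-83290347 (plus), Acadm at chr3:153944644-153944893 (minus), Cycs at chr6:50566570-50566819 (minus), Ndufs5 at chr4:123718187-123718436 (minus) and Retn at chr8:3655520-3655769 (plus).
Ucp1: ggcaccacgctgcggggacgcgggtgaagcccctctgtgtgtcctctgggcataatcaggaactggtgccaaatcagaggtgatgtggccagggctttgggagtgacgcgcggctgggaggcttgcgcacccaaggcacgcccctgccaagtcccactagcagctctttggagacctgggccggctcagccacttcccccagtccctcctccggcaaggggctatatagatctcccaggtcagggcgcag
Acadm: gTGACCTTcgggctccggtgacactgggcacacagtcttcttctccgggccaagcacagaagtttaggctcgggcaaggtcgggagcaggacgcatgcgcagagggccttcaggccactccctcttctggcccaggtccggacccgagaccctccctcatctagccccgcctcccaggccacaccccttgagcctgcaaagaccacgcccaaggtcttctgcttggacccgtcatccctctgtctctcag
Cycs: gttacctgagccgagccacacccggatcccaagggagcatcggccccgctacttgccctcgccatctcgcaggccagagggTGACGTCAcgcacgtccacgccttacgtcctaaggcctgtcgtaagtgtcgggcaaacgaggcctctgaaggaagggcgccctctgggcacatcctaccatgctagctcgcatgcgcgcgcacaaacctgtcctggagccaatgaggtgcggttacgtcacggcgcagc
Ndufs5: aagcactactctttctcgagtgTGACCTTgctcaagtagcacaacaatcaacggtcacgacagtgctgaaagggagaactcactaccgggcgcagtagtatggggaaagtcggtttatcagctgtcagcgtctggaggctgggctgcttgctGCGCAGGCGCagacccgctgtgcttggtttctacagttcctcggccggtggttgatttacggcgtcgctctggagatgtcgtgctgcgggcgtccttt
Retn: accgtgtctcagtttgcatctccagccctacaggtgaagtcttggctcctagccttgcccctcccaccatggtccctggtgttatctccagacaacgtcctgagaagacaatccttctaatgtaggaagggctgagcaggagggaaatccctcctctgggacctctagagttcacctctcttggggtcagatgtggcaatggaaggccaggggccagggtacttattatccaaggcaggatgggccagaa
The Acadm window holds AAGGTCA, that of Cycs TGACGTCA and that of Ndufs5 both AAGGTCA and the NRF1 motif, while those of Ucp1 and Retn hold none of the searched letters.

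A window was available for 9488 of the 12496 genes, of which 893 were called higher in BAT, 1162 higher in WAT and 104 belonged to the respiratory chain, ATP synthase, tricarboxylic acid cycle and fatty acid oxidation lists. TGACGTCA stood in 2.85% of all windows, in 3.70% of those called higher in BAT, in 1.20% of those called higher in WAT and in 6.73% of the 104. AAGGTCA stood in 2.74%, 4.14%, 3.01% and 6.73% of the same sets, and the NRF1 motif in 8.59%, 9.41%, 3.27% and 16.3%. CCGGAAG was found in 14.1% of all windows, 14.6% of the BAT side, 5.34% of the WAT side and 16.3% of the 104. TATAAA stood in 6.38%, 7.05%, 8.86% and 5.77% of these, so for both motifs the share in the 104 was near that of all windows. The sets differed little in base composition, with 60.0% G or C on the BAT side and 58.8% on the WAT side, and 57.7% in the 104. These shares are a description of letters in the windows and were not tested.

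Acadm, whose window holds AAGGTCA, had a mean of 58605 ± 8056 in BAT and 7232 ± 1754 in WAT (SD, n = 16), a difference of 3.05. Cycs had 13164 ± 1962 and 1778 ± 512 (2.93), and Ndufs5 3109.7 ± 407 and 768 ± 216 (2.06). All of them were higher in BAT in 16 of 16 animals. In the fatty acid oxidation list 19 of 21 genes were called higher in BAT, with a median of 3.05. Acadvl, which opens the oxidation of very long chains, differed by 4.34, the thiolase Acaa2 by 4.24 and Hadhb of the trifunctional protein by 4.08. The exception was Cpt1a, the liver form of the enzyme that hands fatty acids to mitochondria, which ranged from 521 to 985 in BAT and from 1815 to 4131 in WAT (-2.09, SE 0.08, adjusted p = 1.5e-10). Cpt1b, the muscle form, was listed only in the BAT table, at a mean of 331 ± 61.9 (SD, n = 16). No BAT library overlapped a WAT library in Cpt1a, and none was listed at 0 for Cpt1b.

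Genes of fatty acid synthesis were also called higher in BAT, 11 of 17 (9.37% of all genes were), against 2 higher in WAT (12.4% of all genes were). Fasn, the fatty acid synthase, ranged from 378421 to 967306 in BAT (median 762474) and from 32292 to 252761 in WAT (median 108322), without overlap (2.73, SE 0.22, adjusted p = 9.21e-07). Acacb, the acetyl-CoA carboxylase that makes the malonyl-CoA at mitochondria, differed by 4.57, Mlxipl, the carbohydrate response factor ChREBP, by 2.97 and Acly, the citrate lyase, by 2.97. The desaturases of polyunsaturated fatty acids went the other way, Fads1 by -1.96 (SE 0.08) and Fads2 by -1.53 (SE 0.17). Of glycolysis and glucose uptake, 14 of 17 genes were called higher in BAT, against the same 9.37% of all genes, and 0 in WAT. They were led by Pfkl (3.46), Eno1 (3.22) and the hexokinase Hk2 (2.70). Branched-chain amino acid oxidation had 10 of 18 called higher in BAT and 0 in WAT, among them Bckdha (2.70) of the branched-chain ketoacid dehydrogenase and Pccb (2.14).

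Lipid droplet genes were called in both directions. In the triglyceride and lipid droplet list 6 of 23 were called higher in BAT (9.37% of all genes were) and 2 higher in WAT (12.4% of all genes were). Differences were positive in 19 of the 23, with a median of 0.75. Plin5, a droplet protein that contacts mitochondria, had medians of 10959.9 in BAT and 529 in WAT (4.28). Cidec, which enlarges droplets, ranged from 11633 to 23095 in BAT and from 31422 to 110996 in WAT (-2.00, SE 0.10, adjusted p = 5.81e-08), the opposite of its relative Cidea and without overlap. Plin4, another droplet coat protein, was called higher in WAT too (-1.69). The glycerol phosphate dehydrogenases Gpd1 (3.55) and Gpd2 (5.46) were called higher in BAT. In the peroxisome list 4 of 17 genes were called higher in BAT, with Ehhadh (3.54) first, and 2 higher in WAT. There 13 of 17 differences were positive, with a median of 0.71. Nothing is read from the WAT counts about either list as a whole. The rescaling moved the median of all genes by 0.49 towards BAT, so both list medians depend on it.

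White adipocyte genes lay on the other side. Of the 19 genes of that list in both tables, 13 were called higher in WAT (12.4% of all genes were) and 0 higher in BAT, with a median of -2.28, and Agt, angiotensinogen, was listed in the WAT table only (mean 677 ± 318, SD, n = 16). Retn, resistin, ranged from 150.1 to 420.4 in BAT (median 228) and from 3693 to 29449 in WAT (median 16708), with no overlap (-5.92, SE 0.23, adjusted p = 4.77e-13). Mest, an imprinted gene linked to adipocyte size, ranged from 63.6 to 154 in BAT and from 3602 to 16775 in WAT (-5.95, SE 0.16). Nnat, another imprinted gene, had medians of 363 and 17540.1 (-5.27, SE 0.26). Slc7a10, an amino acid transporter at the surface of white adipocytes, had medians of 79.3 and 2884 (-5.17), and Bmp3, a growth factor, 45.7 and 1645 (-5.13). In all of them every WAT library was above every BAT library.

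Among the 12 largest called differences towards WAT at a level of at least 500 and without overlap, Col6a5, a collagen VI chain, stood first (-6.12, SE 0.35). Apcdd1, an inhibitor of Wnt signalling, ranged from 14.3 to 93.9 in BAT and from 656 to 2611 in WAT (-5.71). Oxtr, the oxytocin receptor, ranged from 18.0 to 68.7 and from 1027 to 4863 (-5.54). Psat1, of serine synthesis, differed by -5.00, Cyp2e1, a cytochrome P450, by -5.44, Serpina3c by -5.02 and Col6a6 by -4.81. Cyp2e1 and Serpina3c belong to families with near-identical copies, so their levels are uncertain where reads were shared.

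Of the secreted adipokines and batokines, 9 of 21 genes were called higher in WAT (12.4% of all genes were) and 5 higher in BAT (9.37%). Lep, leptin, ranged from 1958 to 8956 in BAT (median 5392) and from 26869 to 106371 in WAT (median 54612), a difference of -3.43 (SE 0.12, adjusted p = 8.58e-13). Adipoq, adiponectin, was also called higher in WAT (-1.74, SE 0.15, adjusted p = 0.000247), but its ranges of 9153 to 18117 in BAT and 17298 to 74106 in WAT overlapped. Cfd, adipsin, differed by -4.42 (SE 0.27) and Igf1 by -3.18 (SE 0.14). Higher in BAT were Angptl8 (2.24), which restrains lipoprotein lipase, Nrg4 (2.08), a growth factor that brown fat secretes, Cxcl14 (1.97), a chemokine, Nampt (1.96) and Vegfa (1.79). Sfrp5, a secreted Wnt inhibitor, was listed in the WAT table only, at 1069.9 to 7489 normalised counts.

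Genes that both kinds of adipocyte use lay on both sides of 0, with 13 of 21 positive. Of these 21 pan-adipocyte genes 4 were called higher in BAT (9.37% of all genes were) and 3 in WAT (12.4%). Nothing is read from these counts. The median of the list was 0.27 and became -0.23 with the values as deposited. Pparg, the master regulator of adipocytes, ranged from 5162 to 9671 in BAT and from 1320.3 to 4115 in WAT; it was not called (1.30, SE 0.13, adjusted p = 0.0667), although the depots did not overlap and all 16 animals had more in BAT. Fabp4 (0.14), Plin1 (0.27) and Cd36 (-0.04) were not called either. Of 22 housekeeping genes, 3 were called in each direction, with a median of 0.04, and nothing is read from these counts either. Among the 22, Sdha, a complex II subunit, differed by 3.06 and Actb by -1.41.

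In the adrenergic and thyroid list, 8 of 21 genes were called higher in BAT (9.37% of all genes were) and 1 in WAT (12.4%). The receptors Adrb1 (2.92, SE 0.15) and Adra1a (2.66, SE 0.10) were called higher in BAT, with BAT medians of 640.0 and 2408 against 71.4 and 426 in WAT, while Adrb3 was not called. Downstream, the phosphodiesterase Pde4d (2.79), the G protein gene Gnas (2.07) and the protein kinase A subunit Prkaca (1.32) were called higher in BAT. The adenylyl cyclase Adcy5, which makes cAMP, was the member called higher in WAT, with ranges of 97.6 to 315 in BAT and 2188 to 5737 in WAT (-4.77, SE 0.12, adjusted p = 2.45e-15). Adcy3, another cyclase, was called higher in BAT (1.29). In the insulin signalling list 1 of 19 genes was called in each direction, the adaptor Grb14 towards BAT (2.63) and its relative Grb10 towards WAT (-1.72). Nothing is read from these counts beside the shares of all genes (9.37% and 12.4%).

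Matrix, complement and immune genes were on the WAT side. Of 31 collagens and matrix genes 27 were called higher in WAT (12.4% of all genes were) and 1, Col12a1 (1.88), higher in BAT (9.37%). Their median was -2.28. Col15a1, a basement membrane collagen, ranged from 283 to 1175 in BAT and from 6057 to 14979 in WAT (-4.14), and Col5a3 differed by -4.04. Of 18 complement and coagulation genes 15 were called higher in WAT, against the same 12.4% of all genes, among them Cfd, C4b (-3.83) and C2 (-3.22). F3, tissue factor, was called higher in BAT (1.36, adjusted p = 0.0143). Of 18 interferon response genes, 7 were called higher in WAT and 0 in BAT, with Oasl2 (-2.14) and Oas1a (-2.14) first. Preadipocyte and fibroblast markers, the cells that lay down matrix, had 9 of 14 called higher in WAT, such as Dpp4 (-3.19) and Lum (-2.16).

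Of 20 macrophage markers, all in both tables, 18 were called higher in WAT and 0 in BAT, with a median of -2.33. Adgre1, which encodes F4/80, ranged from 203 to 709 in BAT (median 482) and from 889.9 to 10836 in WAT (median 2196), without overlap (-2.51, SE 0.18, adjusted p = 3.36e-07). Trem2, a lipid receptor of macrophages, differed by -3.73, Lgals3 by -3.05 and Cd163 by -2.56. The markers summed to 274 to 1031 normalised counts per 1000000 in BAT (median 597) and to 1589 to 10494 in WAT (median 3038). The part of macrophage RNA in the immune, complement and matrix differences was not tested. T and NK cell markers had 1 gene in both tables, Il7r (-3.23), and 7 in the WAT table only.

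Vessel markers were nearer to even. Endothelial markers summed to 1020 to 1397 per 1000000 in BAT and 778 to 1221 in WAT. Their differences were positive in 13 of 16, with a median of 0.60. The rescaling moved the median of all genes by 0.49 towards BAT, so the size of this lean depends on it. Of the 16, 2 were called in each direction, near the shares of all genes (9.37% towards BAT, 12.4% towards WAT), so nothing is read from these counts. They were the growth factor receptors Flt1 (1.75) and Kdr (1.24) towards BAT, and Plvap (-1.86) and the lymphatic marker Lyve1 (-2.14) towards WAT. Pericyte and smooth muscle markers summed to 1059 to 1586 per 1000000 in BAT and 1794 to 8196 in WAT, where 1 more marker, Actg2, was listed. Differences were positive in 6 of the 12 in both tables and negative in 6, with a median of -0.30. Of these 12, 1 was called higher in BAT (9.37% of all genes were) and 2 higher in WAT (12.4%), while 9 were not called. Nothing is read from these counts. Mcam (-3.08) and Acta2 (-2.93) were called higher in WAT and Rgs5 higher in BAT (1.20, adjusted p = 0.0434). Without animals 699, 631 and 552 the first 2 kept the call and Rgs5 lost it (1.15, adjusted p = 0.166). These sums were highest in the WAT of female 699 (8196 per 1000000) and male 631 (6737), against 1794 to 3138 in the other 14 WAT libraries. Actg2, a visceral smooth muscle actin listed in the WAT table only, stood at 5205 normalised counts in female 699 and 5447 in male 631, where the WAT median was 55.9. Of 13 mesothelial markers, 10 were listed in the WAT table only, and the 2 in both tables, Lrrn4 (-1.92) and Cldn15 (-1.83), were called higher in WAT. Upk3b ranged from 704 to 4379.9 and Msln, mesothelin, from 325 to 2603 in WAT, so both were detected in every WAT library. No marker of epididymis or testis was listed in either table. Of 16 ovary, oviduct and uterus markers, 13 were in neither table, and the WAT sums of those listed ran from 7.06 to 31.3 per 1000000 (median 11.4), the highest in female 699. Inha, an inhibin subunit listed in the WAT table only, was also highest in female 699, at 94.5 normalised counts against a WAT median of 37.4.

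**Figure D3:**
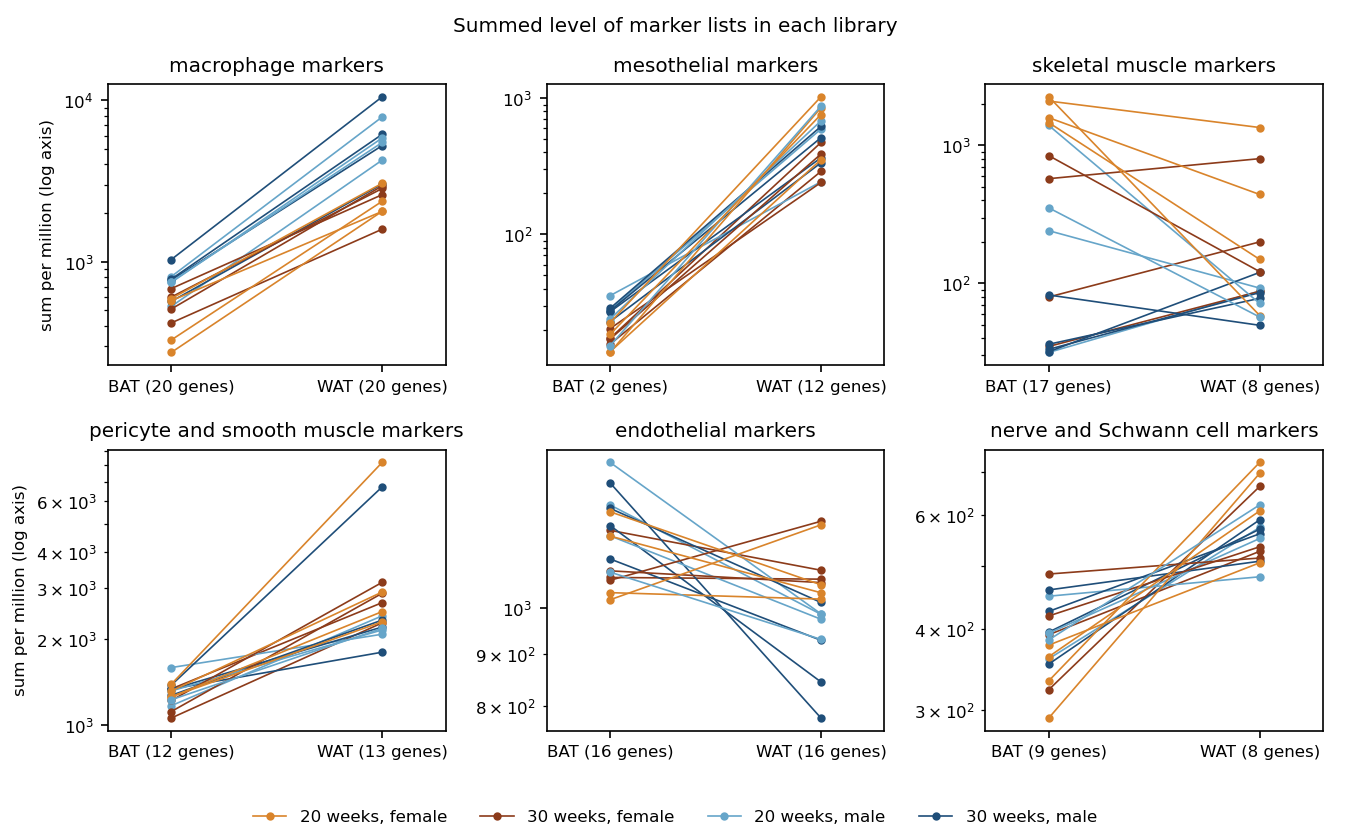
Summed level of marker lists in each library, per 1000000 of its deposited total (log axis), joined by animal. The number of list genes that each table held is in brackets. Macrophage sums lie higher in WAT in every animal, and skeletal muscle sums are high in the BAT of the 20-week females.

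Hox genes, which pattern the body axis, were called in both directions. Of 16 Hox genes in both tables, 2 were called higher in BAT (9.37% of all genes were) and 4 higher in WAT (12.4% of all genes were), while 10 were not called. The depots did not overlap in 6 of the 16, against 29.8% of all genes, and nothing is read from these counts about the family as a whole. A further 9 were listed in the WAT table only and 0 in the BAT table only. Hoxa4 ranged from 73.3 to 164 in BAT and from 21.7 to 42.0 in WAT (1.97, SE 0.09, adjusted p = 9.84e-09), and Hoxa5 from 276 to 479 and from 72.9 to 169.7 (1.68). Towards WAT, Hoxc8 ranged from 32.9 to 86.1 in BAT and from 310.3 to 1044 in WAT (-3.30, SE 0.13, adjusted p = 6.07e-12), and Hoxd3 differed by -2.15. Neither of these pairs overlapped. Hoxb6 (-1.35, adjusted p = 0.0384) and Hoxb7 (-1.46, adjusted p = 0.0271) were close to the threshold, and each lost the call when some single animals were left out.

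The Hox genes of the WAT table included Hoxa9, Hoxa10, Hoxa11, Hoxc9, Hoxc10 and Hoxd9, of the posterior groups, and several of them split by sex. Hoxa10 ranged from 292 to 3549 in the 8 females and from 0.822 to 233 in the 8 males. Hoxc10 ranged from 61.4 to 154 in females and from 0.84 to 7.65 in males, and Hoxa9 from 239 to 1097 and from 2.03 to 78.9. In these genes the sexes did not overlap. Sex and the site of the reproductive depot, which lies beside other organs in each sex, cannot be told apart here. Hoxa11 (39.3 to 943 in females, 0 to 89.0 in males) did overlap. Female 699 held the highest value of Hoxa9, Hoxa10, Hoxa11 and Hoxd9, as well as of Wt1 (1899 against a WAT median of 454). These genes have no value in the BAT table, so no depot difference was computed.

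Among other patterning factors, Gata6 (-3.34, SE 0.13) and Osr1 (-3.42, SE 0.15) were called higher in WAT, with BAT maxima of 59.8 and 69.0 below WAT minima of 235 and 167. Prrx1, a limb and body wall factor, was at the threshold (-1.26, adjusted p = 0.0451) and was not called without the pairing (adjusted p = 0.279). Listed in the BAT table only were Zic1 (86.6 ± 19.2, 47.7 to 123), a marker of interscapular brown fat, Lhx8 (45.4 ± 14.0), Tbx15 (113 ± 40.8), Tbx5 (65.9 ± 16.3), Irx5 and Shox2. Listed in the WAT table only were Wt1 (533 ± 387), Tcf21 (98.7 ± 52.9), Bnc1 and Emx2. Wt1 and Bnc1 are also mesothelial genes.

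**Figure D4:**
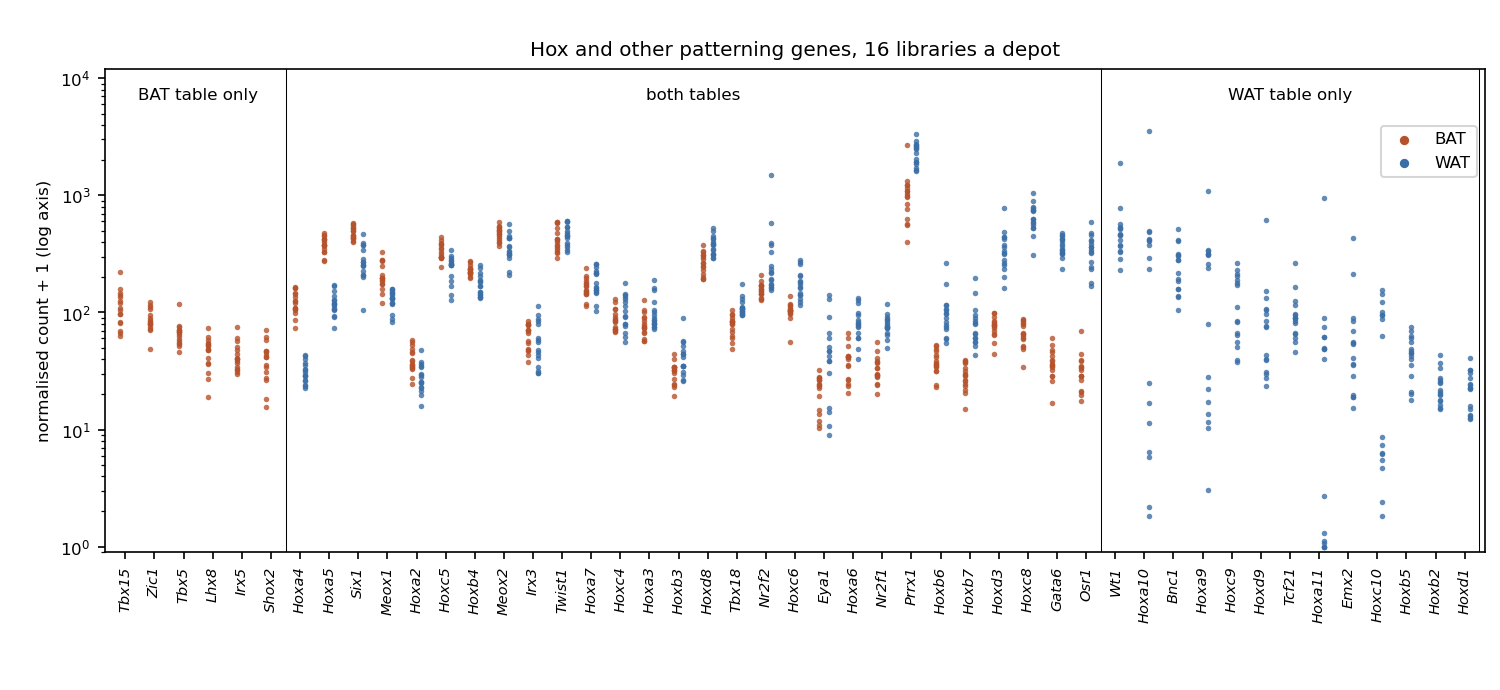
Normalised count + 1 (log axis) of Hox and other patterning genes in 16 libraries a depot, 1 point a library. Genes with points of a single depot are listed in that depot's table only. Sex is not marked. The WAT points of Hoxc10 fall into a higher group, the females (61.4 to 154), and a lower group, the males (0.84 to 7.65).

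In all, 379 genes were listed in the BAT table only (2.94% of it) and 1471 in the WAT table only (10.5% of it), and 46 and 203 of them were well expressed, with a mean of at least 100. A gene absent from a table has no value there, and its level in that depot is not known. The 8 highest in BAT were Myh4 (mean 1588), Gldn (1374), Tuba8 (894), Lrrc15 (818), Cpn2 (647), Myh1 (631), Ptgds (563) and Rgs7 (500.5). Gldn, a gliomedin that assembles nodes of Ranvier in nerve, was even among BAT libraries (987 to 1653), whereas Myh4, a fast muscle myosin, ran from being listed at 0 to 5794. The 8 highest in WAT were Sfrp5 (3237), Pkhd1l1 (2496), Upk3b (2273), Folh1 (1662), Msln (1195), Gpm6a (1184), Krt19 (1175) and Ubd (1112). Of these, Upk3b, Msln, Gpm6a and Krt19 are on the mesothelial list.

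Skeletal muscle genes varied widely between BAT libraries. Of the 18 markers, 8 were in both tables and 9 in the BAT table only. The sums ran from 31.6 to 2251 per 1000000 in BAT (median 297) and from 49.6 to 1348 in WAT (median 90.2). Each sum takes the markers that its table held, so the BAT sums rest on more genes and the depots are not directly comparable. The same holds for the cut of 300 per 1000000 used below. The myosin light chain Myl1 was called higher in BAT (1.51, SE 0.18, adjusted p = 0.0224), and Ttn, titin, ranged from 83.6 to 26872 in BAT and from 75.5 to 14190 in WAT (2.38, SE 0.74, adjusted p = 0.168). Acta1, skeletal muscle actin, ranged from 2.71 to 3732 in BAT and from 412 to 6348 in WAT and was not called (-2.30, SE 0.82, adjusted p = 0.27). Without the 8 animals with muscle sums over 300 per 1000000, chosen after seeing the data, Acta1 was called higher in WAT (-5.28, adjusted p = 0.000605) and Myl1 was no longer called. Without those 8 animals 986 genes were called higher in BAT and 1302 higher in WAT, and 21 of the 25 genes of the brown list were called higher in BAT.

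Depot differences that differed by sex were found in 864 genes (6.91%), 393 with a more positive difference in males (3.15%) and 471 with a more negative one (3.77%), by limma's test of the interaction of depot and sex. The sex difference was larger in WAT in 607 of these genes and larger in BAT in 257, and its median size was 0.47 in WAT and 0.24 in BAT on the log2 scale. The reproductive depot lies beside other organs in each sex, so in WAT sex and the site of the depot cannot be told apart. Ucp1 was among them. In WAT it averaged 437 ± 375 in 20-week females, 31.6 ± 18.3 in 20-week males, 3094 ± 2261 in 30-week females and 203 ± 258 in 30-week males (SD, n = 4 each), while BAT means lay between 81979 and 114117. Its depot difference was 7.02 in females and 10.57 in males, 3.55 larger in males (SE 0.63, adjusted p = 0.00483). Fabp3 went the same way (6.37 in females, 8.34 in males, adjusted p = 0.0344). No other gene of the brown list was called for sex, and Cidea in WAT averaged 472 ± 268, 214 ± 75.1, 2111 ± 1577 and 465 ± 333 in the same order of groups.

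The 6 genes with the smallest p in each direction are described next. Nrn1, neuritin, a secreted neuronal protein, ranged from 117 to 369 in female WAT and from 0.264 to 111 in male WAT, while BAT stayed between 22.0 and 85.5. Its depot difference was -2.90 in females and 2.38 in males (difference 5.27, SE 0.61, adjusted p = 0.000344). Kng2, already named, was lower in male WAT (18.1 to 34.8) than in female WAT (49.1 to 153), and its difference was larger in males (1.81, SE 0.23, adjusted p = 0.00068). Col6a5 was the reverse, with 371 to 965 in female WAT and 2627 to 9041 in male WAT, without overlap (-2.64, SE 0.34, adjusted p = 0.0007). Pth1r, the parathyroid hormone receptor, averaged 962 in female and 335 in male WAT against 1445 and 1675 in BAT (1.71, SE 0.19, adjusted p = 0.000344). Ccn1 and Tnc, matrix proteins, were instead higher in male BAT: Ccn1 averaged 640 in female and 1590 in male BAT (1.71, SE 0.22, adjusted p = 0.0007) and Tnc 271 and 705 (1.63, SE 0.19, adjusted p = 0.0004). The chemokine receptor Cxcr4 averaged 304 in female and 571 in male WAT (-1.05, SE 0.14, adjusted p = 0.000833). The other genes of this rank were Csgalnact1 (chondroitin sulfate synthesis, 0.80), the kinase Sbk2 (-1.86), Hs6st1 (heparan sulfate modification, -1.05), St8sia4 (polysialic acid synthesis, -1.05) and St3gal5 (ganglioside synthesis, -1.02).

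**Figure D5:**
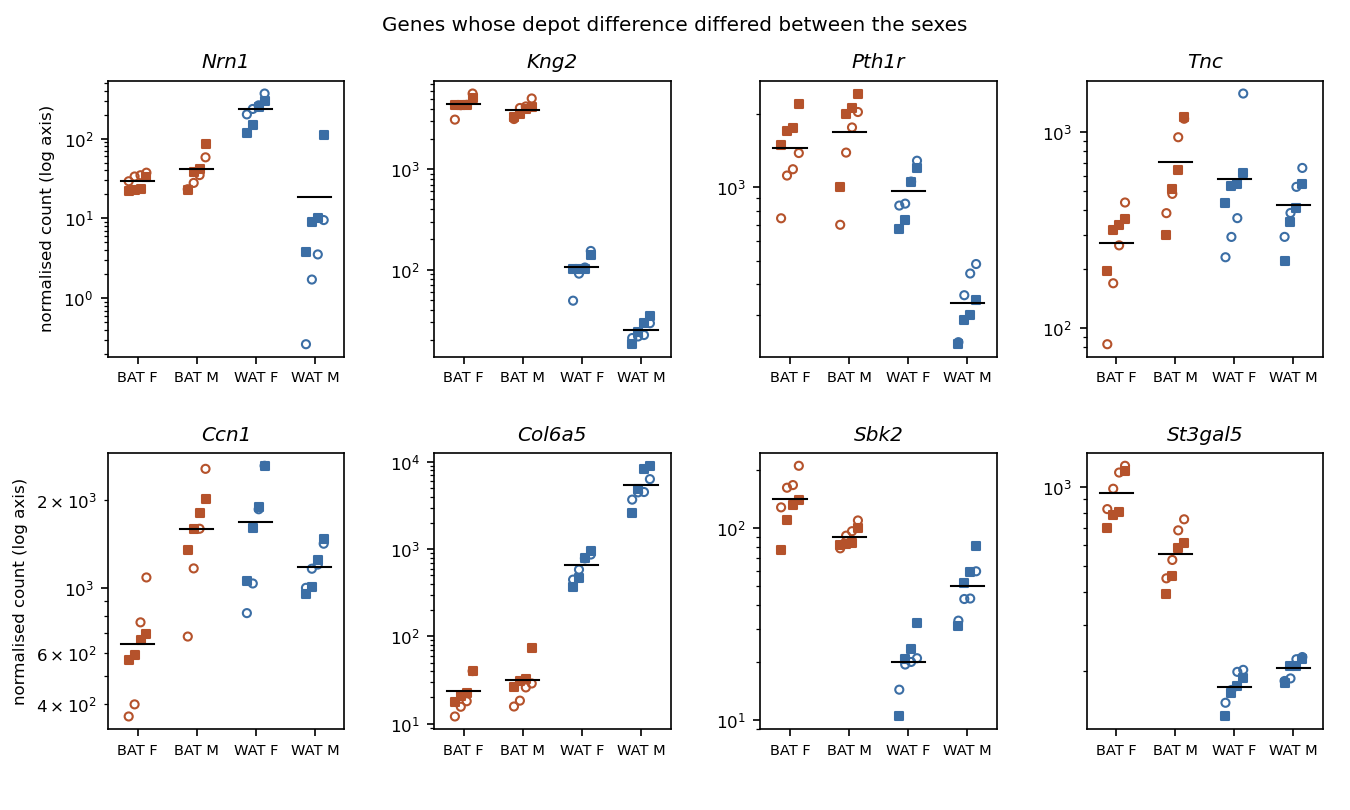
Normalised counts (log axis) in female (F) and male (M) libraries of each depot, 8 points a group, for genes whose depot difference differed between the sexes. Nrn1 and Kng2 are lower and Col6a5 is higher in male WAT than in female WAT.

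By list, the macrophage markers moved together with sex. Their interaction was negative in 19 of 20 genes, with a median of -0.47 against 0.01 over all genes, and 7 of 20 were called (3.77% of all genes were called negative). Adgre1 averaged 1495 in female and 5097 in male WAT, against 381 and 559 in BAT, and its depot difference was -1.96 in females and -3.07 in males (difference -1.10, adjusted p = 0.0173). In WAT the macrophage sums were 1589 to 3057 per 1000000 in females and 3019 to 10494 in males. Endothelial markers went the other way, with 7 of 16 called positive (3.15% of all genes were), among them Tie1, Erg and Pecam1. No gene of the respiratory chain, ATP synthase, tricarboxylic acid cycle or fatty acid oxidation lists was called for sex. In the fatty acid synthesis list, however, 4 of 17 genes were called positive (3.15% of all genes were). The interaction there was positive in 13 of the 17, with a median of 0.61. Of the immediate early genes, which respond to handling within minutes, 5 of 16 were called positive, led by Nr4a1 (1.86, adjusted p = 0.00327), with a median of 0.69. Pericyte and smooth muscle markers were positive in 12 of 12 (median 0.50, 3 called). Red blood cell markers were positive in 5 of 5 (median 1.39) with 0 called, and skeletal muscle markers negative in 7 of 8 (median -1.58) with 2 called, Casq1 and Ryr1. The part of macrophage, vessel, blood or muscle RNA, or of handling, in the sex result was not tested. The count rests on single animals: it was 772 and 677 without female 699, but 239 and 286 without female 489, 253 and 299 without male 552, 256 and 380 without female 724 and 285 and 313 without female 490.

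No depot difference was called as differing between 20 and 30 weeks. By limma's interaction of depot and age, 0 genes were called and 902 had an unadjusted p under 0.05 (7.22%). When libraries were weighted by limma's array weights, 75 genes were called positive and 40 negative. The interaction of Ucp1 was -2.69 (SE 0.63, unadjusted p = 0.000489), a smaller difference at 30 than at 20 weeks, but its adjusted p was 0.311. The brown list leaned the same way, with a negative interaction in 24 of 25 genes and a median of -0.56, against -0.00 over all genes. In the fatty acid oxidation list 20 of 21 were negative (median -0.43). In collagens and matrix genes 29 of 31 were positive (median 0.35), and in the preadipocyte and fibroblast markers 14 of 14 (0.41). Skeletal muscle markers had the largest median in size of all lists, with 8 of 8 negative (-3.17). Their BAT sums were 1462 to 2251 per 1000000 in 20-week and 34.9 to 843 in 30-week females, and 31.6 to 1396 in 20-week and 31.95 to 82.3 in 30-week males. No member of these lists was called, and the part of muscle RNA in the age pattern of the other lists was not tested.

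To see which depot differences of SM/J were not shared, the same comparison was set beside that in LG/J on the low-fat diet, with 16 animals each and 12139 genes in all 4 tables. Of the SM/J calls, 2595 stood in all 4 tables, and 2580 of these had the same sign in LG/J. These genes were chosen for a difference of more than 2-fold in SM/J. The share with the same sign over all 12139 genes is not given here, so the count does not measure how alike the strains are. The depot difference differed by more than 2-fold between the strains in 27 genes (0.222%), 15 more positive in SM/J (0.124%) and 12 more negative (0.0989%). With the values as deposited these were 13 and 26. The 4 tables were scaled separately, so strain, depot and table cannot be told apart for a shift of all genes.

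Cbfa2t3, a transcriptional corepressor, differed by 2.48 in SM/J and -0.11 in LG/J (difference 2.59, SE 0.12, limma adjusted p = 3.64e-11). In SM/J its BAT and WAT means were 598 and 108, and in LG/J 216 and 233, on the scale of the 4 tables. Lmo1, another transcription cofactor, differed by 2.17 in SM/J and -0.80 in LG/J (difference 2.97, SE 0.15). Map6 (-0.52 and -2.88), Lrrc8b (-0.02 and -2.10), a volume-regulated anion channel subunit, and the phosphatase Ptprk (-0.18 and -2.06) had the larger difference in LG/J, towards WAT, and were not called in SM/J. Dtna, a dystrobrevin, leaned towards WAT in both, by -3.70 in SM/J and -1.39 in LG/J. Efs (-1.64 and 0.72), Il17re (-1.55 and 0.88) and Ripor2 (-1.93 and 0.67) had differences of opposite sign in the strains. C4a (-2.62 and 1.62), H2-Q10 (2.12 and -1.47) and Aldh1a7 (-2.80 and 0.39) also differed, but they have near-identical relatives and strain alleles can change where reads map, so their values are uncertain.

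Of the other lists, most were called in both directions or held few calls. Of 19 genes of steroid, retinoid and xenobiotic metabolism, 7 were called higher in WAT (12.4% of all genes were) and 5 higher in BAT (9.37%). Those towards WAT were led after Cyp2e1 by Aldh1a1 (-4.07), which makes retinoic acid, and Gsta3 (-3.00). Among those towards BAT were Fmo1 (2.48) and Hsd11b1 (1.72), which activates glucocorticoids. Creatine and calcium cycling genes had Gatm (-1.80), Gamt (-2.27) and Ckb (-2.55), of creatine synthesis and phosphorylation, called higher in WAT and the phosphatase Alpl (3.25) higher in BAT. Of 15 circadian clock genes 3 were called higher in BAT (9.37% of all genes were), among them Hlf (2.07) and Ciart (1.60). Of 18 cell division genes 9 were called higher in WAT with the pairing and 4 without it, and Mki67 (-1.38, adjusted p = 0.0354, 15 of 16 animals) was lost in that fit (adjusted p = 0.310). Of the 16 immediate early genes 1 was called for the depot, Nr4a2 (1.92), higher in BAT. Red blood cell markers had 0 of 5 called.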

How the data were processed

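Both depots of 16 SM/J mice on the low-fat diet were analysed. Per the labels' protocols, tissue was flash frozen, and 1 ug of total RNA (RIN over 7.5) was made into Illumina RiboZero libraries. Per the submitters' processing notes, STAR 2.6.0c, edgeR and mm10 were used. How multi-mapped reads were counted is not given in the sources used here. The deposited unit is a signal per gene and library: fractional counts, normalised by the authors separately in the table of each depot. Whole reads could not be recovered, so no count model was used and the depth is unknown.

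Here, the 32 libraries were rescaled together by median ratios over the 12496 genes of both tables and put on the log2(value + 1) scale. limma 3.58.1 (R 4.3.3) was fitted with a trend and with animal as a block, which takes up age and sex. The depot difference was tested against a 2-fold difference, the interactions with age and sex against 0, and the interaction with strain (LG/J added, 12139 genes, 64 libraries) against a 2-fold difference, all two-sided, at 0.05 after Benjamini-Hochberg adjustment. Libraries share an animal only through the number in their names. Each animal is 1 sample, and the labels call the samples of a group biological replicates.

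The rules for naming genes took the 12 largest called differences in each direction (mean of at least 500 in the higher depot, no overlap), up to 4 called members of each list in each direction, the 6 smallest p in each direction for each interaction, the 8 highest genes of each table alone, the list members and 15 genes followed throughout. A few list members outside these rules (such as Ppargc1a, Prdm16, Vegfa, Gnas and Adcy3) were named after their values were seen. The members and lists were chosen with earlier results of these data known. Lists were counted, with no set test. Promoter windows and motif matches came from RefSeq tables (GRCm38.p6), and gene positions from GENCODE M21. The fits were tested on simulated data. The alternatives tried are given at the end. Gm13340, a predicted gene with 5.74% of the BAT values, stayed in the scaling. No column of the tables was left out. Some genes of the lists are counted but not reported by name here.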

Additional observations from a re-analysis of the deposited data

Results flagged for a closer look

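In groups of 4 animals, a sample far from the other 3 was found in 14 of 212 groups tested (6.60%), where chance gives about 1 in 20, and none is explained here. For the depot difference (BAT minus WAT, log2), 30-week female 662 stood apart in Slc27a2 (7.08, above the others), Kng2 (5.17, below them), Col6a6 (-5.17) and Col6a5 (-5.49). The 20-week female 699, whose WAT library stands apart in general, did so in Ppara (7.17) and Col6a5 (-3.45), 20-week female 761 in Ntrk3 (5.26), 20-week female 730 in Oxtr (-4.94) and 30-week female 490 in Slc7a10 (-5.75). Among 30-week males, 552 stood apart in Cox7a1 (7.01) and 631 in Cyp2e1 (-3.73). For genes of a single table, 20-week male 542 was far from the other 20-week males in Upk3b in WAT (704 normalised counts) and in Zic1 in BAT (115), and female 699 in Tcf21 in WAT (263).

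The depot difference differed between the sexes (males minus females, log2, limma's interaction) most clearly in Nrn1 (5.27), Kng2 (1.81), Pth1r (1.71), Ccn1 (1.71), Tnc (1.63) and Csgalnact1 (0.80) upwards and in Col6a5 (-2.64), Sbk2 (-1.86), Hs6st1 (-1.05), Cxcr4 (-1.05), St8sia4 (-1.05) and St3gal5 (-1.02) downwards. Between the strains (SM/J minus LG/J, limma's interaction) it differed in H2-Q10 (3.59), Lmo1 (2.97), Cbfa2t3 (2.59), Map6 (2.36), Lrrc8b (2.08) and Ptprk (1.88) upwards and in C4a (-4.24), Aldh1a7 (-3.18), Ripor2 (-2.60), Il17re (-2.43), Efs (-2.36) and Dtna (-2.31) downwards. These genes were chosen by their p, so their sizes are likely to be overestimated.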

How the results depend on the processing

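No gene called in the main analysis changed sign under any alternative. The depot calls were tested against 2-fold, so a change of scale could hardly have reversed them. Scaling moved the depot counts in opposite directions: 650 genes higher in BAT and 2669 higher in WAT with the values as deposited, and 718 and 2400 with all libraries at the same total, against 1171 and 1552. Tested against 0, 5073 and 5187 genes passed. Leaving out each animal gave 1145 to 1176 and 1513 to 1564, and without animals 699, 631 and 552 (chosen after seeing the data) 1147 and 1543. For age, 0 genes were called in the main analysis, but 75 (positive) and 40 (negative) with array weights, 1 negative at the same total, 1 negative at the same upper quartile, 1 and 5 with housekeeping scaling, 4 and 5 without animals 699, 631 and 552, and 0 to 5 and 0 to 6 with each animal left out, the most without male 542. For sex, array weights gave 879 and 864, and leaving out each animal 239 to 772 and 286 to 677. For strain, 26 genes were negative with the values as deposited, and leaving out each SM/J animal gave 15 to 18 and 12 to 15. At a mean of at least 50 there were 96 well-expressed genes of the BAT table alone and 570 of the WAT table alone, and at 500 there were 8 and 26. Of the values of single named genes, 187 for the depot difference fell below the threshold under an alternative, mostly of genes near it (Rgs5, Ephx2, Il17re, Mcpt4, Mki67, Prrx1), and 9 rose above it.

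The numbers come from the labels and pair animals only by name. Samples with the same number deviated together in most cases: the correlation of their deviations was over 0.1 in 13 of 16 animals (median 0.191, from -0.067 to 0.471), and 12 of 16 correlated best with their own number. Without this replicate block, 190 and 228 genes were called for sex instead of 393 and 471, and 1144 and 1516 for the depot.

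Read depth is not known, so no counting error can be given for any value, and low levels rest on an unknown number of reads.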
